A study of Mus musculus with 23 samples.

Results

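The comparison described here was the output of the paternal allele in embryos without maternal and zygotic Zfp57 (M-Z-) set against that in M+Z+ embryos. Its members were 7 M-Z- embryos (4 female and 3 male) and 10 M+Z+ embryos (6 female and 4 male) of the 23 embryos in the series, and 6110 genes of the 26183 gene symbols in the tables. Those were the autosomal genes outside chromosome 17 with a mean of at least 20 reads assigned to either parental allele over the 17 embryos. RNA was sequenced from whole hybrid mouse embryos at mid-gestation (E13.5), 1 library per embryo. The mothers were 129 mice (129S6/SvEvTac) and the fathers were Zfp57+/- mice that had been backcrossed to DBA/2J (DBA* in the study's methods), so reads over variants between the strains could be given to the 129 genome of the mother or the DBA genome of the father. M-Z- embryos (Zfp57-/-) came from Zfp57-/- mothers and lacked both the protein of the oocyte and that of the embryo, whereas M+Z+ embryos had both. The titles give M+Z+ embryos as Zfp57-/+, the columns of the tables are headed WT, and the study's text writes Zfp57+/- in one place and Zfp57+/+ in another, so whether the M+Z+ embryos carried a deleted copy is not settled by the sources. No label ties embryos to litters. M+Z+ embryos had the protein of the oocyte, which Zfp57-/- mothers cannot give, so no mother gave embryos of both groups. The genotype of the embryo therefore cannot be told apart from mother and litter. The p-values measure the spread between embryos and not that between litters.

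ZFP57 is a KRAB zinc finger protein that binds a methylated TGCCGC motif and keeps DNA methylation on imprinting control regions (ICRs) after fertilization. At most ICRs the methylated copy is the maternal one, and genes such as Plagl1, Snrpn and Inpp5f are then expressed mainly from the father's chromosome. At a few ICRs, among them the intergenic region of the Dlk1-Dio3 domain and those of H19-Igf2 and Rasgrf1, the methylated copy is the paternal one. In the Dlk1-Dio3 domain the paternal chromosome normally gives Dlk1 mRNA and the maternal chromosome gives the noncoding RNAs Meg3 and Rian with the small RNAs they host. The paternal allele is thus the one that carries the methylation mark at the Dlk1-Dio3 ICR and lacks it at most others.

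Several features of the libraries bear on the values below. The 17 embryos had 2.46 to 3.94 M allele reads, and all levels are given as reads per 1000000 allele reads of the embryo (RPM). Zfp57 itself was lower in M-Z- embryos in the gene tables, at 31.6 ± 3.46 CPM (the same scale over gene counts; SD, n = 7) compared with 70.8 ± 14.8 CPM (n = 10). The headers of 4 of the 6 female M+Z+ columns repeat, and these embryos are called a, b, c and d. They stood apart from the other M+Z+ embryos on chromosome 17: within 5 Mb of Zfp57, 2.56 to 3.46% of allele reads were paternal, as against 40.1 to 40.9% in the 2 other female M+Z+ embryos, 41.9 to 43.7% in male M+Z+ embryos and 1.94 to 3.999% in M-Z- embryos. The part of this difference in the results was not tested, chromosome 17 was left out of the comparison, and values without these 4 embryos are given where they move a call. A different set, female M+Z+ embryos b, c and d and male M+Z+ embryo 4, stood apart on other chromosomes: in 359 of the 6110 tested genes (5.88%) the paternal levels of these 4 lay wholly above or wholly below those of the other 6 M+Z+ embryos. The study's text numbers its M+Z+ embryos in 2 series of the same make-up, 3 females and 3 males with a prime mark and 3 females and 1 male without, and the numbers of M-Z- embryos go on from the latter, but the labels do not say which library belongs to which series. The part of this split in the results was not tested, and values against each set alone, chosen after the data were seen, are given below. Markers of liver, heart, muscle, cartilage, neurons and epidermis were detected in the embryos of both genotypes, and the 8 placental markers summed to 0.184 to 1.57 CPM in M+Z+ and 0.578 to 1.41 CPM in M-Z- embryos, with Prl3d1 and Prl2c2 at 0 throughout. Of 95 X-linked genes with enough reads in male M+Z+ embryos, whose X is maternal, 82 were over 90% maternal and 11 were over 90% paternal, so the strain assignment of single genes can be reversed. A total of 242 tested genes were over 95% maternal and 189 over 95% paternal in M+Z+ embryos, and a change on an allele with few assigned reads can be missed in such genes.

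Few genes were called on the paternal allele. Of the 6110 genes, 65 were called in M-Z- embryos (1.06%; edgeR's quasi-likelihood test with the table as covariate, Benjamini-Hochberg adjusted p below 0.05 and a change of 0.5 or more in log2 size), with 34 higher (0.556%) and 31 lower (0.507%). The split was 28 higher and 29 lower with TMM factors and 20 higher and 34 lower with beta globin reads left out of the scaling. At an unadjusted p below 0.05 the main test gave 985 genes, and 127 passed the adjusted p with no minimum size. A gene that was not called may still have changed. Against female M+Z+ embryos b, c and d and male M+Z+ embryo 4 alone, a fit of 11 embryos called 7 genes, and 6 of these were among the 65: Dlk1, Meg3, Rian, Mir770, AF357359 and Bhmt. All other genes described below as called on the paternal allele were not called in that fit. Of the 65 genes, 63 kept their sign there, Gm12338 changed it and Thumpd1 had 0 paternal reads in all 11 embryos, while 58 kept at least 0.5 of their log2 fold change. Against the other 6 M+Z+ embryos alone 146 genes were called, with 61 of the 65 among them. Of the 65 genes, 46 changed by less than 2-fold and 19 by more. Only 12 of the 65 had M-Z- and M+Z+ embryos that did not overlap in RPM in either the female or the male table. These were 5 gains (Meg3, Rian, Mir770, AF357359 and Hdnr) and 7 losses (Dlk1, Bhmt, Proz, Serpinc1, Lincred1, Sptb and F5), while among all tested genes 28 (0.458%) lay apart in this way on the higher side and 11 (0.18%) on the lower side. Mir770 lies within Meg3 and AF357359 within Rian, and their reads cannot be told from those of the hosts. Counts of genes that hold them with their hosts are therefore no counts of separate measurements. The median log2 fold change over all tested genes was 0.03 on the paternal and 0.04 on the maternal allele. The genes nearest the limits were Mdk, with a log2 fold change of 0.51, and Ambp, with an adjusted p of 0.0482, on the inside, and Gpi1, with 0.48, and Cd38, with an adjusted p of 0.0502, on the outside.

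For most of the called genes the maternal change, called or not, had the sign of the paternal one. Of the 65 genes, 63 had at least 3 maternal reads over the 17 embryos, and the maternal change had the sign of the paternal one in 57 of them, while 21 were called on both alleles in the same direction, 12 higher and 9 lower. Both alleles were read in the same libraries, and the count of like signs has no share over all 6110 genes beside it. On the maternal allele 77 genes were called in all (1.26%), 44 of them higher (0.72%) and 33 lower (0.54%). The difference between the alleles was tested in a fit of both allele counts with the embryo as a block (allele by genotype), which called 39 genes (0.638%), with the paternal change above the maternal one in 16 (0.262%) and below it in 23 (0.376%). A total of 10 genes called on the paternal allele were also called there. In 8 of them the paternal change was above the maternal one (Meg3, Rian, Mir770, AF357359, Zscan22, Slc35a4, Lars2 and Zfp992) and in 2 it was below (Dlk1 and Thumpd1). For the other 55 genes no difference between the alleles was called, and the maternal change had the same sign in all 26 of those that were higher and in all 27 of those that were lower and had maternal reads, which Bhmt and Gm12338 all but lacked. These genes were picked for the lack of a called difference, so their like signs are no separate evidence.

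**Figure D1:**
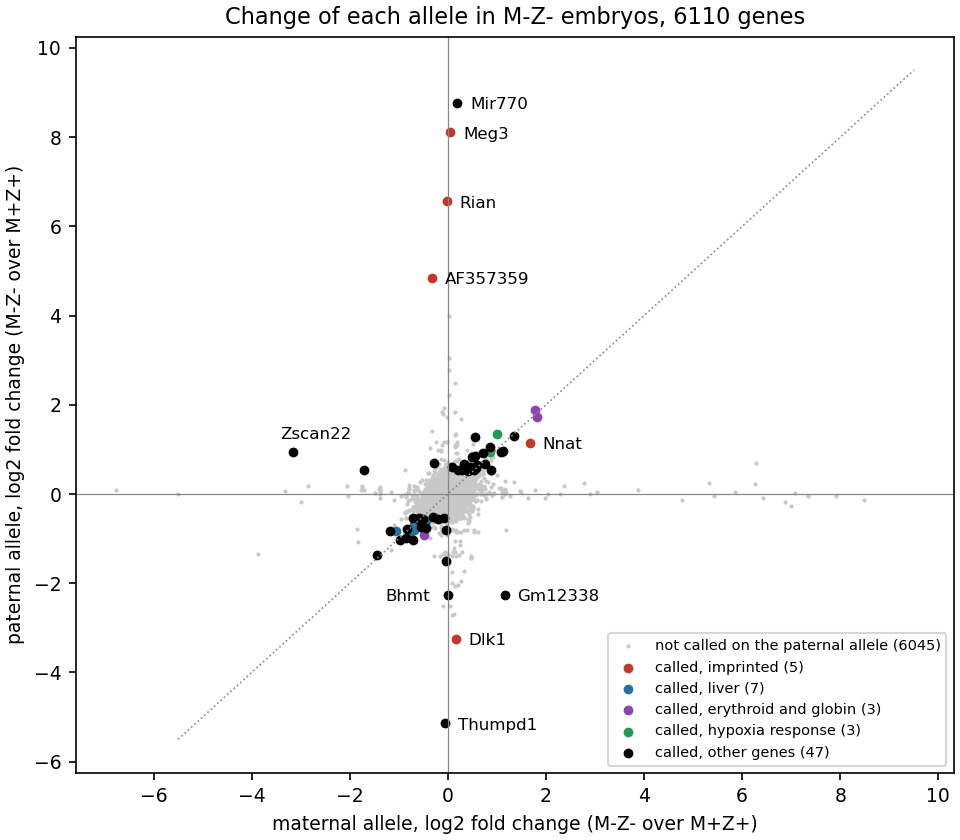
Log2 fold change of M-Z- over M+Z+ embryos on the paternal allele (vertical axis) against that on the maternal allele (horizontal axis), 1 point per gene for 6110 genes. Coloured points are the 65 genes called on the paternal allele by gene list, and the dotted line marks equal change of both alleles. Meg3, Rian, Mir770 and AF357359 stand at the top with maternal changes near 0, Dlk1 lies below 0 likewise, and most liver genes lie near the dotted line. The values of Mir770 and Thumpd1 are fitted against a group at 0.

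Genes of the Dlk1-Dio3 domain on chromosome 12 changed in opposite directions on the paternal allele. Dlk1, which encodes a transmembrane ligand related to the Notch ligands, fell on the paternal allele, whereas the noncoding RNA genes Meg3 and Rian rose from near 0, Meg3 to about the level of its maternal allele and Rian to somewhat below it. The genes lie on the plus strand in mm9, Dlk1 at chr12:110691033-110701546, Meg3 at chr12:110779206-110809939 and Rian at chr12:110842155-110899921. The promoters of Dlk1 and Meg3 are shown because their paternal alleles moved in opposite directions. They are RefSeq promoters of GRCm38.p6 from 250 bases before to 50 bases after the start, on the plus strand (chr12:109452573-109452872 for Dlk1 and chr12:109540746-109541045 for Meg3), with the letters TGCCGC or their reverse complement GCGGCA in capitals. The third sequence is the 200-base stretch between the genes that holds the most matches, in mm9 (chr12:110766480-110766679, plus strand).
Dlk1 promoter: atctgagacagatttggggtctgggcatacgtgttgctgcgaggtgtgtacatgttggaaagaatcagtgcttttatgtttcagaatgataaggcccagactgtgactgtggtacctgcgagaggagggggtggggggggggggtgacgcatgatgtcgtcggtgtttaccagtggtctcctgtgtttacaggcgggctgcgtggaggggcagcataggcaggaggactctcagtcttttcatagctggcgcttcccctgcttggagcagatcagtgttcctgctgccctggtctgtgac
Meg3 promoter: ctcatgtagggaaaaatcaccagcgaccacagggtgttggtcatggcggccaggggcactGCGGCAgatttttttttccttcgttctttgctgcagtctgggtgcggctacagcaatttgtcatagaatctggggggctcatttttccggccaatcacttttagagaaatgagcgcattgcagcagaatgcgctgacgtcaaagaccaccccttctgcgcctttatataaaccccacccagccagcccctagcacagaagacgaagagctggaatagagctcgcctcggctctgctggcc
Dlk1 to Meg3 interval: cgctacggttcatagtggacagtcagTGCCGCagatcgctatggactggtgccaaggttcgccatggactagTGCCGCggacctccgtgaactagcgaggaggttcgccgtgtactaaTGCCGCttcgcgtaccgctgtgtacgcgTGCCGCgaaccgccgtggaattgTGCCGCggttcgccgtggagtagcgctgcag

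Both strands were searched for TGCCGC. The Dlk1 promoter held no match, and the Meg3 promoter held 1 reverse match at position 61. In the 77659 bases between the end of Dlk1 and the start of Meg3 there were 18 matches, or 0.232 per kb, and 5 of them lay in the 200 bases shown, all on the plus strand. That stretch begins 64933 bases after Dlk1 and ends 12526 bases before Meg3. Cut end to end into 388 stretches of the same length, the interval had 15 (3.87%) with a match. The motif was found in 3813 of 32851 promoters in the table (11.6%), in 1195 of the 6063 promoters of tested genes (19.7%) and in 8 of the 62 promoters of genes called on the paternal allele (12.9%), for which 49 of the 65 genes had an entry. A match is a run of letters and no evidence of binding.

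Paternal Dlk1 ranged from 535 to 776 RPM (median 573) in the 6 female M+Z+ embryos and was 71.3, 52.5, 78.4 and 79.996 RPM in the 4 female M-Z- embryos. Among males it was 611, 639.9, 795 and 700.4 RPM in M+Z+ embryos and 55.7, 60.6 and 79.4 RPM in M-Z- embryos. The genotypes lay far apart in both tables, and every M-Z- embryo was close to the level of the maternal allele. The mean fell from 650.5 ± 99.98 RPM (SD, n = 10) to 68.3 ± 11.8 RPM (n = 7), a log2 fold change of -3.25 (SE 0.11, adjusted p = 1.06e-19). Maternal Dlk1 was 57.0 RPM in M+Z+ and 63.6 RPM in M-Z- embryos and was not called (log2 fold change 0.16, adjusted p = 0.576). The difference between the alleles was -3.41 (adjusted p = 1.87e-30).

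Paternal Meg3, a long noncoding RNA, ranged from 1.37 to 10.9 RPM (median 7.87) in female M+Z+ embryos and was 1277, 1299, 1428 and 1853 RPM in female M-Z- embryos. The male values were 1.01, 2.21, 2.06 and 8.34 RPM in M+Z+ and 1895, 1873 and 1516 RPM in M-Z- embryos. No M-Z- embryo came near the M+Z+ range in either sex. The log2 fold change was 8.11 (SE 0.21, adjusted p = 1.56e-22), with means of 5.86 ± 3.84 RPM (SD, n = 10) and 1592 ± 276 RPM (n = 7). Maternal Meg3 was 1418 RPM in M+Z+ and 1475 RPM in M-Z- embryos (log2 fold change 0.05, adjusted p = 0.870), so that in M-Z- embryos both alleles stood at a like level. In each M-Z- embryo paternal Meg3 was somewhat above maternal Meg3, which was 1202 to 1770 RPM.

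Rian, the noncoding host of a cluster of box C/D small nucleolar RNAs, also rose on the paternal allele. Its paternal reads ranged from 7.86 to 18.6 RPM (median 11.95) in female M+Z+ embryos and were 963, 857, 951 and 1087 RPM in female M-Z- embryos. Male embryos had 6.34, 5.17, 7.22 and 10.9 RPM in M+Z+ and 912, 1042 and 883 RPM in M-Z- embryos. In each M-Z- embryo paternal Rian stayed below maternal Rian, which was 1052 to 1335 RPM. The genotypes did not overlap, and the log2 fold change was 6.56 (SE 0.13, adjusted p = 1.32e-25) compared with -0.01 on the maternal allele (adjusted p = 0.968). Over Meg3 and Rian together the paternal share of allele reads was 0.614 ± 0.261% (SD, n = 10) in M+Z+ embryos and 49.1 ± 0.820% (n = 7) in M-Z- embryos, with ranges of 0.283 to 0.986% and 48.2 to 50.1%.

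A pair of small RNA genes within these hosts were called as well, and the tables cannot tell their reads from those of the hosts. Mir770 lies within Meg3 (chr12:110801902-110801995, mm9, plus strand). Its RefSeq mature sequences are shown with the seed, bases 2 to 8, in capitals, because it is the microRNA gene whose paternal reads appeared in M-Z- embryos.
mmu-miR-770-5p: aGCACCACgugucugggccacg
mmu-miR-770-3p: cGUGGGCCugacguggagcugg

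Paternal reads over Mir770 were 0 in all 10 M+Z+ embryos and were 7.75, 16.9, 16.3 and 22.9 RPM in female and 21.5, 24.7 and 22.5 RPM in male M-Z- embryos. Every M-Z- embryo therefore had reads where no M+Z+ embryo had any. Against the 3 counts over the M+Z+ group that a count of 0 allows (0.102 RPM), the level in M-Z- embryos was at least 183-fold higher (adjusted p = 1.60e-10). This floor covers counting error alone, because the libraries had no molecular identifiers and a molecule can give several reads. Paternal reads over AF357359, a small nucleolar RNA gene within Rian (chr12:110888919-110888948), were 13.03, 14.5, 8.54 and 6.13 RPM in female and 5.69, 12.1 and 9.29 RPM in male M-Z- embryos, as against 0 to 2.46 RPM in M+Z+ embryos. The groups did not overlap, and the log2 fold change was 4.85 (SE 0.46, adjusted p = 4.21e-08). Female M+Z+ embryo 2 held 7 of the 9 paternal reads of the M+Z+ group, and without it the log2 fold change was 6.39.

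**Figure D2:**
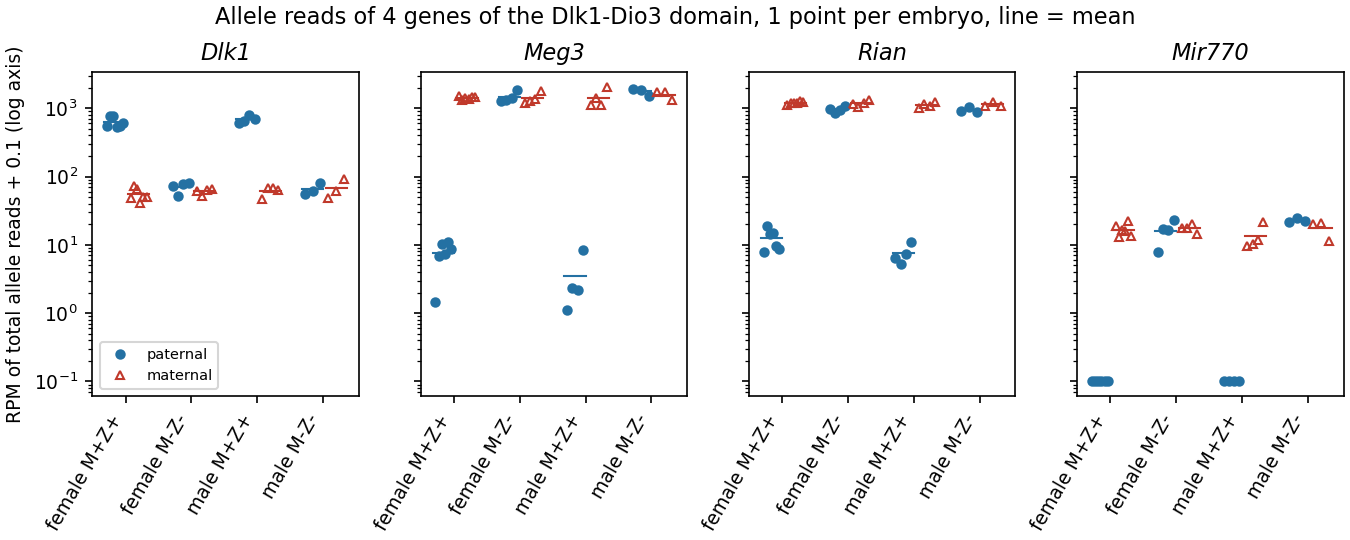
RPM plus 0.1 on a log axis for Dlk1, Meg3, Rian and Mir770 in each of the 17 embryos by sex and genotype, with circles for the paternal allele, triangles for the maternal allele and lines for group means. Paternal Dlk1 drops to the maternal level in all 7 M-Z- embryos, while paternal Meg3 rises to about the maternal level, paternal Rian to somewhat below it, and paternal Mir770 appears only there.

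The other genes of the domain had few or no allele reads. Begain, which lies on the other side of Dlk1 (chr12:110270392-110306452, minus strand) and encodes a synaptic protein, had 7.06 ± 1.46 RPM (SD, n = 10) from the paternal allele in M+Z+ and 4.88 ± 1.24 RPM (n = 7) in M-Z- embryos and was not called (log2 fold change -0.52, adjusted p = 0.197). Dio3, Dio3os and Mirg were below the minimum of allele reads, with means of 4.35, 15.4 and 0.647 reads per embryo. Paternal Dio3os was 3.20 to 7.03 RPM in M+Z+ and 0.388 to 2.07 RPM in M-Z- embryos, without overlap but on few reads. It was outside the 6110 tested genes. Rtl1 had 0 allele reads. The 2 other domains with paternal methylation could not be read, since Igf2, H19 and Rasgrf1 had 0 allele reads in every embryo.

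Of the list of 93 imprinted genes, 87 were in the tables and 36 were tested. On the paternal allele 4 were higher (Nnat, Meg3, Rian and AF357359), 1 was lower (Dlk1) and 31 were not called. AF357359, which lies within Rian, is counted here as a gene of its own. On the maternal allele of the same genes 15 were higher and 3 lower, and the allele by genotype test called 20, with the paternal change above the maternal one in 5 and below it in 15. The call of 5 genes on the paternal allele held in all 17 fits that left out 1 embryo. With every gene of at least 1 allele read, 7 imprinted genes were called. In the fit without the 4 embryos a to d, Nnat was no longer called (log2 fold change 1.01, adjusted p = 0.0508), nor was it against embryos b, c, d and male 4 alone (0.92, adjusted p = 0.465).

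The paternally expressed genes next to an ICR with maternal methylation kept their paternal level close to that of M+Z+ embryos. Of 16 tested, 1 was called on the paternal allele (Nnat) and 15 were higher on the maternal allele, all but Mcts2. Their median log2 fold change was -0.004 on the paternal and 5.64 on the maternal allele, and the paternal values ran from -0.27 (Hymai) to 1.15 (Nnat). Plagl1, a zinc finger transcription factor, had 2052 ± 201 RPM (SD, n = 10) from the paternal allele in M+Z+ and 2082 ± 187 RPM (n = 7) in M-Z- embryos (log2 fold change 0.02, adjusted p = 0.925), while its maternal allele went from 18.8 to 2513 RPM. Snrpn, which encodes a protein of the spliceosome, was at 241.5 ± 8.92 and 235.4 ± 24.1 RPM on the paternal allele (log2 fold change -0.04, adjusted p = 0.804) and went from 1.56 to 257.8 RPM on the maternal one. For Inpp5f, an inositol phosphatase gene, the paternal change was -0.002 (adjusted p = 1) and the maternal change 2.28 (adjusted p = 7.70e-22). In these 3 genes the maternal rise came with no called change of the paternal allele.

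Zdbf2, a growth-promoting gene of chromosome 1, had 17.95 RPM on the paternal allele in M+Z+ and 17.9 RPM in M-Z- embryos (log2 fold change -0.01, adjusted p = 1), and Impact, a regulator of translation, had 168.7 ± 10.3 RPM in M+Z+ and 190.1 ± 21.7 RPM in M-Z- embryos (log2 fold change 0.17, adjusted p = 0.172). The maternal alleles of both rose, by a log2 fold change of 2.90 for Zdbf2 and 2.36 for Impact. The lowest paternal values were those of Hymai, a noncoding RNA gene at Plagl1, at -0.27 (adjusted p = 0.124) and of Peg13, a noncoding RNA gene of chromosome 15, at -0.14 (adjusted p = 0.360). Neither was called.

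Nnat, which encodes a small membrane protein of neuroendocrine cells, was the exception. It lies in an intron of Blcap on chromosome 2. Its RefSeq promoter (GRCm38.p6 chr2:157559828-157560127, plus strand) is shown because Nnat was the only gene of this class called on the paternal allele, and it held 1 GCGGCA match, in capitals, at position 278.
Nnat promoter: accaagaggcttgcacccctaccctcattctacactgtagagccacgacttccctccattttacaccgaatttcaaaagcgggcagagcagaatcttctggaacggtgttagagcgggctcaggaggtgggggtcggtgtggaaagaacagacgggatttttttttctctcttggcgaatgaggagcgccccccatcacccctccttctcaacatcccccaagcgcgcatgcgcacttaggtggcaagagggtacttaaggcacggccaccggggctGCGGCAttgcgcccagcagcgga

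Paternal Nnat ranged from 2.49 to 5.46 RPM (median 3.93) in female M+Z+ embryos and was 10.5, 9.32, 7.37 and 9.68 RPM in female M-Z- embryos, with no overlap. In male embryos it was 3.802, 5.90, 3.44 and 10.5 RPM in M+Z+ and 12.2, 16.98 and 7.36 RPM in M-Z- embryos, where the groups overlapped. The log2 fold change was 1.15 (SE 0.23, adjusted p = 0.00560). The maternal allele rose as well (log2 fold change 1.67, adjusted p = 0.0162), and the difference between the alleles was not called (-0.48, adjusted p = 0.932).

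Maternally expressed genes at ICRs with maternal methylation gave 0 paternal calls in the same test among 11 tested, in which 3 maternal alleles fell (Zim1, Phactr2 and Kcnk9). Their paternal log2 fold changes ran from -1.35 (Zim1, adjusted p = 0.197) to 0.54 (Kcnk9, adjusted p = 0.806), both from alleles near 0. Phactr2, a regulator of actin and protein phosphatase 1, had 129.7 ± 11.98 RPM (SD, n = 10) on the paternal allele in M+Z+ and 121.9 ± 13.01 RPM (n = 7) in M-Z- embryos (log2 fold change -0.09, adjusted p = 0.596), while its maternal allele fell from 326 to 125 RPM. After that fall both alleles of Phactr2 had a like level. Of 5 tested genes from a list of single genes reported as imprinted (Ano1, Pde4d, Tbc1d12, Sall1 and Wars), 0 were called on the paternal allele, with log2 fold changes from -0.21 to 0.12. Among the 7 tested genes of imprint maintenance, including Dnmt1, Dnmt3a, Setdb1 and Zfp445, 0 were called (log2 fold changes from -0.14 to 0.30). At an unadjusted p below 0.05 these 3 lists had 3 (Gnas, Zim1 and Chrac1), 0 and 0 genes, DESeq2 called 0 in each, and over all genes the edgeR test gave 985.

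**Figure D3:**
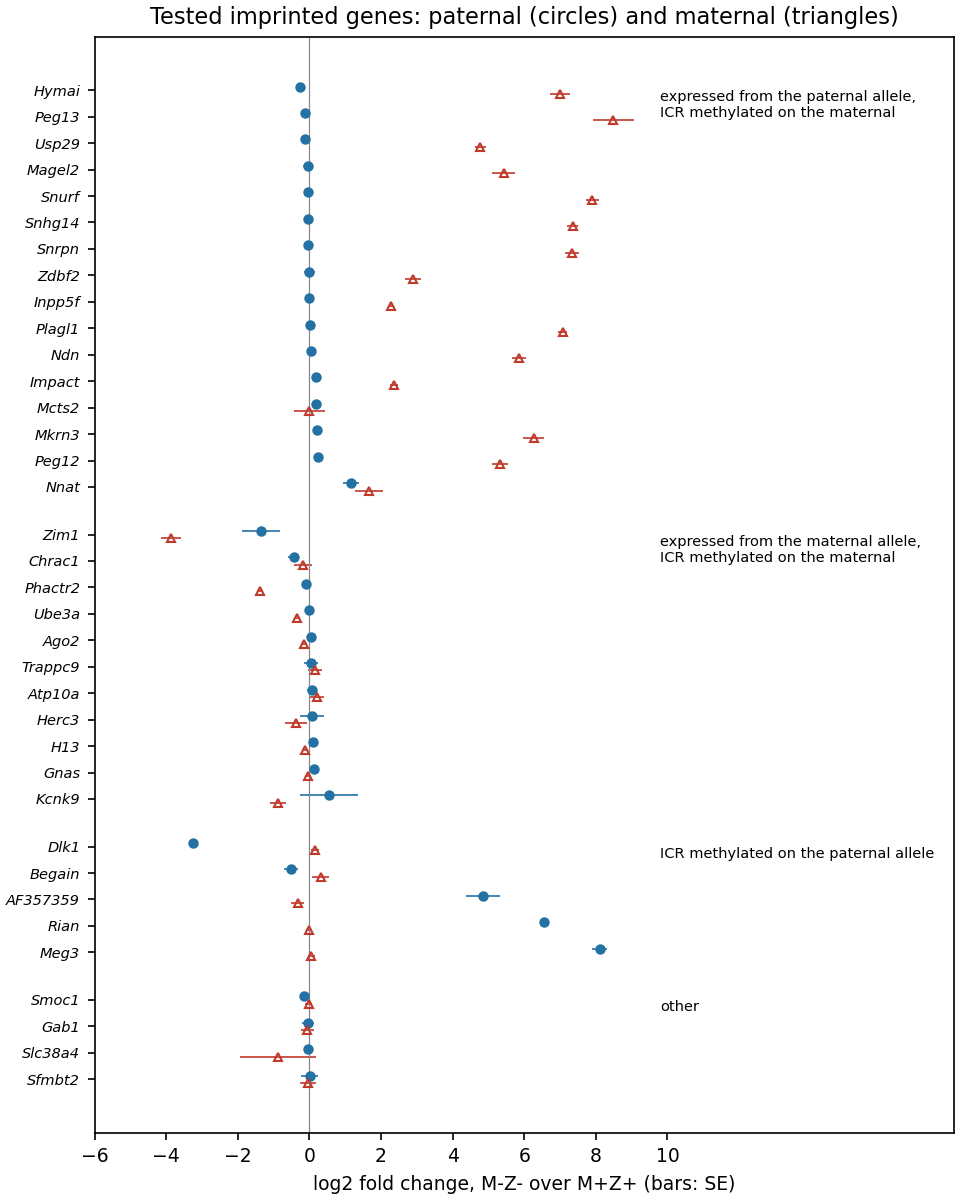
Log2 fold change of M-Z- over M+Z+ embryos with its SE for the 36 tested imprinted genes, paternal allele and maternal allele side by side, grouped by the parent of expression and by the allele that carries ICR methylation. Paternal values of the 16 paternally expressed genes with maternal ICR methylation have a median of -0.004 and run from -0.27 to 1.15, whereas their maternal values have a median of 5.64.

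Among the gene lists, that of the fetal liver held the most genes called lower. Of 40 genes in the liver list, 11 had enough allele reads, all 11 had paternal log2 fold changes below 0 (median -0.66, compared with 0.03 over all genes), and 7 were called lower: the fibrinogen chains Fgg, Fga and Fgb, the steroid carrier Serpina6, the apolipoprotein Apoa1, the plasma protein Ambp and alpha-fetoprotein (Afp). Over all 6110 tested genes 2503 had paternal values below 0 and 31 (0.507%) were called lower. The maternal median of the liver list was -0.64, and 4 of its genes were called lower on that allele. In bulk samples fewer cells of a type and less RNA per cell cannot be told apart. In the gene tables the liver marker Alb was at 978 ± 402 CPM in M-Z- and 1947 ± 587 CPM in M+Z+ embryos, and its part in these results was not tested.

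Paternal Afp, which encodes the main serum protein of the fetus, ranged from 1009 to 2088 RPM (median 1444) in female M+Z+ embryos and was 1094, 942, 946 and 1339 RPM in female M-Z- embryos. Male embryos had 1487, 1468, 1891 and 1486 RPM in M+Z+ and 787, 594 and 1452 RPM in M-Z- embryos. The female groups overlapped and the male groups did not, with 1 male M-Z- embryo just below the M+Z+ range. The log2 fold change was -0.59 (SE 0.14, adjusted p = 0.0236) on the paternal and -0.61 (adjusted p = 0.0190) on the maternal allele. The 2 alleles of Afp thus fell by like amounts, and their difference was 0.03 (adjusted p = 0.932).

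Fgg fell most within the list. Its paternal allele ranged from 21.7 to 53.5 RPM (median 31.0) in female M+Z+ embryos and was 22.6, 16.2, 19.4 and 23.2 RPM in female M-Z- embryos, 37.5, 37.6, 53.6 and 30.8 RPM in male M+Z+ and 10.97, 13.7 and 31.4 RPM in male M-Z- embryos. The groups overlapped in both tables, by 1 or 2 embryos. The log2 fold change was -0.89 (SE 0.18, adjusted p = 0.00894). Fga (-0.82), Fgb (-0.81), Serpina6 (-0.67), Apoa1 (-0.66) and Ambp (-0.61) followed. The number of liver genes called fell to 2 without female M-Z- embryo 3 and was 9 without female M+Z+ embryo b, and it was 7 without the 4 embryos a to d. Against embryos b, c, d and male 4 alone 0 were called with edgeR (4 at an unadjusted p below 0.05), with all 11 values still below 0 and a median of -0.38, and against the other 6 M+Z+ embryos 9 were called with a median of -0.79.

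Outside the liver and imprinted lists, the losses without overlap were led by Bhmt, betaine-homocysteine methyltransferase, an enzyme of methionine synthesis that is made mainly in the liver. It lies at chr13:94386846-94407713 (mm9). Its paternal allele ranged from 14.7 to 43.6 RPM (median 21.3) in female M+Z+ embryos and was 6.20, 4.83, 2.33 and 5.48 RPM in female M-Z- embryos. In the male table it was 22.8, 20.3, 36.1 and 23.9 RPM in M+Z+ and 5.69, 3.64 and 9.68 RPM in M-Z- embryos. Every M-Z- embryo was below every M+Z+ embryo, and the log2 fold change was -2.26 (SE 0.25, adjusted p = 8.84e-07). Maternal Bhmt reads were 0 in all 17 embryos, so the change of its maternal allele could not be read.

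Serpinc1, which encodes antithrombin, ranged from 56.4 to 97.4 RPM (median 65.9) on the paternal allele in female M+Z+ embryos and was 31.3, 31.4, 33.4 and 49.4 RPM in female M-Z- embryos. The males had 63.4, 59.8, 92.8 and 58.4 RPM in M+Z+ and 24.8, 17.4 and 49.9 RPM in M-Z- embryos. No M-Z- embryo reached the M+Z+ range. The log2 fold change was -1.03 (SE 0.16, adjusted p = 0.000268), compared with -0.97 on the maternal allele (adjusted p = 0.0125).

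The other losses without overlap were smaller or less abundant. F5, coagulation factor V, ranged from 38.4 to 54.9 RPM in female M+Z+ embryos and was 28.5, 14.5, 23.7 and 36.4 RPM in female M-Z- embryos (log2 fold change over both tables -0.82, adjusted p = 0.0124). Proz, the vitamin K-dependent plasma protein Z, ranged from 5.69 to 12.4 RPM and was 2.48, 3.11, 2.72 and 4.19 RPM in the same groups (-1.04, adjusted p = 0.0113). Neither F5 (adjusted p = 0.0515) nor Proz (adjusted p = 0.0710) was called without embryos a to d. The noncoding gene Lincred1 changed by -0.98 (adjusted p = 0.00657) and Sptb, the beta-spectrin of the red cell membrane, by -0.91 (adjusted p = 0.00560), the latter with no called maternal change (-0.48, adjusted p = 0.132).

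Further losses outside any list are named here after their values were seen. Trf, which encodes the iron carrier transferrin, had a paternal log2 fold change of -0.77 (adjusted p = 0.00560) and a maternal one of -0.83 (adjusted p = 0.00414). Slc27a2 (-0.58), Acsl1 (-0.56) and Cpt1a (-0.53), which take up, activate and carry long-chain fatty acids into mitochondria, and the peroxisomal oxidase Acox2 (-1.38) were also called. So were Gldc, the glycine decarboxylase (-0.57), Lbp, a plasma protein that binds bacterial lipopolysaccharide (-0.58), and Car2, a carbonic anhydrase of red cells (-0.56). Gdf2, a growth factor of the bone morphogenetic protein family that is made mainly in the liver, went the other way, at 0.54 on the paternal (adjusted p = 0.0437) and 0.89 on the maternal allele (adjusted p = 3.91e-05). Without embryos a to d the adjusted p was 0.0755 for Acsl1, 0.0942 for Cpt1a, 0.0713 for Acox2 and Car2, 0.0980 for Lbp and 0.0507 for Gdf2, and these were not called.

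Among 13 tested erythroid and globin genes the embryonic globins rose and most others had values below 0. Hba-x, the zeta globin of primitive red cells, ranged from 107 to 741 RPM (median 225) on the paternal allele in female M+Z+ embryos and was 521, 752, 960 and 507 RPM in female M-Z- embryos. Among males it was 290.2, 373, 96.6 and 224 RPM in M+Z+ and 962, 2957 and 358 RPM in M-Z- embryos. The groups overlapped in both tables, and male M-Z- embryo 2 was the highest by far. The log2 fold change was 1.72 (SE 0.36, adjusted p = 0.00944) on the paternal and 1.82 (adjusted p = 0.00562) on the maternal allele.

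Hbb-bh1, an embryonic beta-like globin, changed by 1.89 (SE 0.35, adjusted p = 0.00486) on the paternal allele, with 2799.8 RPM in male M-Z- embryo 2 and 299 to 1189 RPM in the other M-Z- embryos, compared with 104 to 735 RPM in M+Z+ embryos. Without male M-Z- embryo 2 both embryonic globins were still called, with log2 fold changes of 1.21 for Hba-x and 1.45 for Hbb-bh1. The other 11 genes of the list had paternal values below 0, of which Sptb alone was called. These 11 count Hba-a1 and Hba-a2, which share their counts, separately and include adult beta globins with hardly any paternal reads. The tallies of signs in this list are therefore no counts of separate measurements. The list had 5 called genes without female M+Z+ embryo b and 5 without embryos a to d. With b, c, d and male 4 left out it also had 5, Hba-a1 and Hba-a2 among them. Against embryos b, c, d and male 4 alone 0 of the 13 were called with edgeR (3 at an unadjusted p below 0.05), 6 were above and 7 below 0 and the median was -0.14, compared with -0.38 over all embryos, with 1.25 for Hba-x (adjusted p = 0.547) and 1.43 for Hbb-bh1 (adjusted p = 0.517). The adult alpha globins Hba-a1 and Hba-a2 had identical counts in the tables, so they are 1 measurement, with a paternal log2 fold change of -1.43 (adjusted p = 0.0739) and a maternal one of 0.48 (adjusted p = 0.154). Their assigned reads were nearly all maternal, with 5 paternal and 3716 maternal reads in female M+Z+ embryo b. Paternal Hba-a1 was 1.78 to 4.64 RPM in female M+Z+ embryos b, c and d and male M+Z+ embryo 4. It was 8.94 to 19.8 RPM in the other 6 M+Z+ embryos and 1.61 to 9.30 RPM in M-Z- embryos. The paternal fall was therefore seen against those 6 embryos, and the part of this split was not tested. The adult beta globins were almost wholly assigned to the maternal allele, at 3.79 RPM for paternal and 37726 RPM for maternal Hbb-b1 in M+Z+ embryos, which leaves their paternal change hardly measurable.

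All 8 tested genes of the hypoxia response had paternal values above 0 (median 0.66, compared with 0.51 on the maternal allele), and 3 were called: Egln3, an oxygen-sensing prolyl hydroxylase (1.34, adjusted p = 0.0289), Hk2, a hexokinase (0.94, adjusted p = 0.0387), and Eno1, an enolase (0.57, adjusted p = 0.0113). Over all 6110 tested genes 3607 had paternal values above 0 and 34 (0.556%) were called higher. Paternal Egln3 ranged from 4.31 to 10.5 RPM (median 7.48) in female M+Z+ embryos and was 6.82, 18.98, 11.6 and 12.6 RPM in female M-Z- embryos. The male values were 8.37, 7.01, 7.22 and 5.44 RPM in M+Z+ and 8.13, 68.7 and 13.55 RPM in M-Z- embryos. The groups overlapped in both tables, and male M-Z- embryo 2 stood far above the rest, as it did for Hk2 with 62.6 RPM. Without that embryo 0 hypoxia genes were called, with log2 fold changes of 0.68 for Egln3 (adjusted p = 0.111), 0.53 for Hk2 (adjusted p = 0.0925) and 0.39 for Eno1 (adjusted p = 0.0114, below the minimum size). Without male M-Z- embryo 3 there were 7, and without embryos a to d there was 1. Against embryos b, c, d and male 4 alone 0 were called with edgeR (5 at an unadjusted p below 0.05), with all 8 values above 0 and a median of 0.52.

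**Figure D4:**
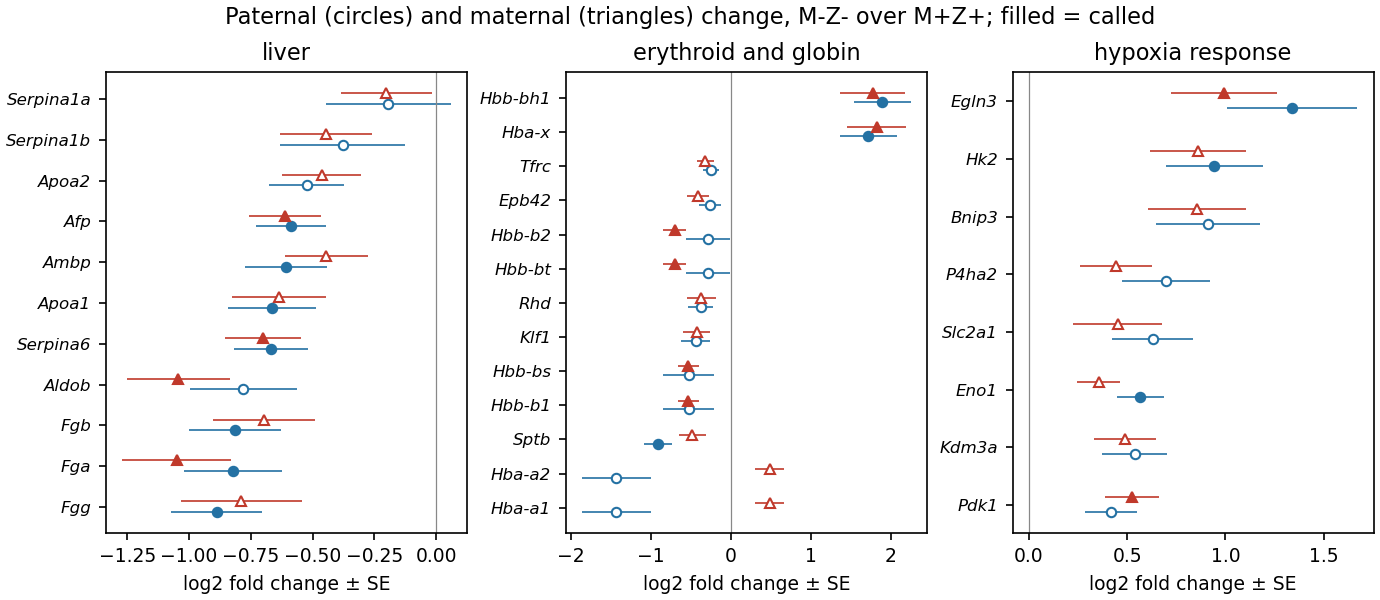
Log2 fold change of M-Z- over M+Z+ embryos with its SE on the paternal and the maternal allele for the tested liver, erythroid and globin, and hypoxia genes, with filled symbols for called genes. All 11 liver genes lie below 0 and all 8 hypoxia genes above 0 on the paternal allele, with the maternal values close beside them.

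In the muscle and heart list 1 of 6 tested genes was called, the median paternal change was 0.13 and 2 genes were below 0. The called gene was Myh6, the alpha myosin heavy chain of the atria and embryonic heart, with a paternal log2 fold change of 0.58 (SE 0.13, adjusted p = 0.0122). It ranged from 45.3 to 70.3 RPM (median 51.4) in female M+Z+ embryos and was 52.4, 103, 82.7 and 73.9 RPM in female M-Z- embryos, 46.6, 44.7, 38.5 and 62.4 RPM in male M+Z+ and 104, 71.5 and 59.2 RPM in male M-Z- embryos. The groups overlapped in both tables. The other heart genes Tnnt2 (0.25, adjusted p = 0.0504) and Myh7 (0.30, adjusted p = 0.0717) were not called. Against embryos b, c, d and male 4 alone 0 of the 6 were called with edgeR (3 at an unadjusted p below 0.05). All 6 values were above 0 there, with a median of 0.28. Against the other M+Z+ embryos Myh6 was called, the median was 0.08 and 3 genes were below 0.

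Further called genes known from the heart, which are on no list, were named after their values were seen. Gata6, a transcription factor of heart and endoderm, had 15.9 ± 2.84 RPM (SD, n = 10) on the paternal allele in M+Z+ and 25.0 ± 4.42 RPM (n = 7) in M-Z- embryos (log2 fold change 0.65, adjusted p = 0.00560; maternal 0.60, adjusted p = 0.0138). Hand2, a transcription factor of the heart, limbs and branchial arches, changed by 0.66 (adjusted p = 0.0133), and Hspb7, a small heat shock protein of heart and skeletal muscle, by 0.66 (adjusted p = 0.00486). Hdnr, a noncoding RNA gene near Hand2 (chr8:59811232-59833377, mm9), ranged from 1.76 to 3.76 RPM (median 2.26) in female M+Z+ embryos and was 5.27, 4.14, 5.43 and 7.10 RPM in female M-Z- embryos, 2.79, 3.32, 0.688 and 1.81 RPM in male M+Z+ and 6.10, 5.66 and 7.74 RPM in male M-Z- embryos. The groups of Hdnr did not overlap in either table, and its log2 fold change was 1.29 (SE 0.25, adjusted p = 0.00560) on few reads.

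Other gains, likewise named after their values were seen, were of mixed kinds. Trib3, a stress-induced pseudokinase, changed by 1.31 (adjusted p = 0.00608) on the paternal and 1.35 (adjusted p = 0.0112) on the maternal allele. Kcne3, a potassium channel subunit, changed by 1.05 (adjusted p = 0.00543), Slc16a3, a lactate exporter, by 0.97 (adjusted p = 0.0216) and Stc2, a secreted glycoprotein, by 0.95 (adjusted p = 0.0471). Male M-Z- embryo 2 was the highest of all embryos for Trib3 (31.5 RPM), Kcne3 (36.8 RPM) and Slc16a3 (73.6 RPM), and without it Slc16a3 was no longer called (0.61, adjusted p = 0.0592). Without embryos a to d neither Trib3 (1.06, adjusted p = 0.0554) nor Stc2 (1.09, adjusted p = 0.0659) was called. Stc2 was called in 4 of the 17 fits that left out 1 embryo, and its value was 0.50 (adjusted p = 0.141) without male M-Z- embryo 2. Sox10, a transcription factor of neural crest cells, changed by 0.54 (adjusted p = 0.0142), and Mdk, the growth factor midkine, by 0.51 (adjusted p = 0.00608).

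In the lists of the IGF system (7 tested), neurons (6 tested), and cartilage and bone (7 tested), 0 genes were called on the paternal allele with edgeR or DESeq2, and 2, 1 and 2 had an unadjusted p below 0.05. Igfbp3 (0.33, adjusted p = 0.0165) and Igfbp5 (0.31, adjusted p = 0.0400), which bind insulin-like growth factors, passed the adjusted p but not the minimum size. In the neuron list the median paternal value was -0.03, and the lowest was -0.79 (Rbfox3, nearly all maternal). In cartilage and bone the paternal values ran from -1.25 (Ibsp, adjusted p = 0.128) to 0.33 (Sox9, adjusted p = 0.134), with a median of -0.16.

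Some genes changed on the paternal allele by an amount that differed from the maternal change, outside any imprinted list. They were named after their values were seen. Zscan22, a zinc finger gene on chromosome 7 (chr7:13483158-13494432, mm9), ranged from 3.16 to 9.29 RPM (median 6.65) on the paternal allele in female M+Z+ embryos and was 15.5, 16.2, 17.5 and 15.8 RPM in female M-Z- embryos, with no overlap. In male embryos it was 5.07, 4.43, 7.57 and 6.16 RPM in M+Z+ and 8.54, 5.25 and 6.97 RPM in M-Z- embryos, which overlapped. Maternal Zscan22 reads were 0 in the 4 M-Z- females and in M-Z- males 2 and 3, and 5.69 RPM in male M-Z- embryo 1, compared with 3.42 to 9.96 RPM in female and 4.82 to 8.12 RPM in male M+Z+ embryos. The paternal log2 fold change was 0.94 (adjusted p = 0.0159), the maternal one -3.16 (adjusted p = 0.00149) and the difference 4.20 (adjusted p = 2.32e-06). Maternal reads were therefore absent at this depth from all M-Z- embryos except 1.

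Slc35a4 and Zfp992 were smaller. Slc35a4, a solute carrier gene that was almost wholly paternal in the assigned reads, had 19.8 ± 3.49 RPM (SD, n = 10) in M+Z+ and 29.0 ± 6.34 RPM (n = 7) in M-Z- embryos on the paternal allele (0.55, adjusted p = 0.0236; difference from the maternal change 2.25, adjusted p = 0.00961). Zfp992, a zinc finger gene, had 6.48 ± 1.17 RPM in M+Z+ and 10.5 ± 2.32 RPM in M-Z- embryos (0.69, adjusted p = 0.0289; difference 0.97, adjusted p = 0.0471). Without embryos a to d the paternal change was not called for Zscan22 (adjusted p = 0.0560), Slc35a4 (adjusted p = 0.0518) or Zfp992 (adjusted p = 0.0626).

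In 7 of the 65 called genes (10.8%, compared with 5.88% of all tested genes) the M+Z+ embryos themselves fell on 2 sides, with female b, c and d and male 4 apart from the other 6. Named after their values were seen, they were Gm12338, Lars2, Thumpd1, Gas5, Ybx2, Sox10 and Mdk. Gm12338 on chromosome 11 had 20.8 to 27.7 RPM on the paternal allele in female M+Z+ embryos 1, 2 and a and male M+Z+ embryos 1, 2 and 3, but 1.73 to 3.56 RPM in female b, c and d and male 4, while M-Z- embryos had 0.310 to 6.77 RPM. Lars2, the mitochondrial leucyl-tRNA synthetase, had 72.5 to 86.0 RPM in the former 6 embryos and 134 to 178 RPM in the latter 4, while M-Z- embryos had 155 to 189 RPM. Thumpd1, a tRNA-binding protein gene, had 0 paternal reads in all 7 M-Z- embryos and in the same 4 M+Z+ embryos. Gas5, a noncoding host of small nucleolar RNAs, had 187 to 239 RPM in the larger set, 351 to 459 RPM in the smaller set and 359 to 578 RPM in M-Z- embryos. For Ybx2, Sox10 and Mdk the M-Z- range likewise overlapped that of the smaller set. The log2 fold changes were 0.59 for Gas5 (adjusted p = 0.0311), -2.27 for Gm12338 (adjusted p = 0.0142), 0.60 for Lars2 (adjusted p = 0.0335) and -5.14 for Thumpd1 (adjusted p = 0.0320), the last a fitted value against a group at 0. Against the smaller set alone the values were 0.10 for Gm12338, 0.08 for Lars2, 0.09 for Gas5, 0.27 for Sox10, 0.35 for Ybx2 and 0.28 for Mdk, with none of them called. The parts of the parents' chromosomes and of the 2 series of embryos in these calls were not tested.

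The difference between the tables, which are also the sexes, was tested on its own. The genotype by table term on the paternal allele gave 0 of 6110 genes at an adjusted p below 0.05 with edgeR (lowest 0.237) and 272 at an unadjusted p below 0.05. No other tool was run on it. Among the alternatives 26 genes were called with at least 1 allele read in any embryo, 3 without male M-Z- embryo 1, 2 without male M-Z- embryo 3 and 2 against M+Z+ embryos b, c, d and male 4 alone. The 5 genes with the lowest p were Cyp4b1-ps2, Tmtc1, Rnf11, Resf1 and Mat2b, of which Cyp4b1-ps2 had a difference of 2.03 between the log2 fold changes (adjusted p = 0.237) and the others an adjusted p of 0.774. Fitted on their own, the females gave 13 called genes and the males gave 9.

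Over all autosomal genes outside chromosome 17 the paternal share of allele reads was 47.2 ± 1.23% (SD, n = 7; range 45.6 to 49.3%) in M-Z- embryos and 45.2 ± 0.874% (n = 10; range 44.0 to 46.6%) in M+Z+ embryos. The difference was 2.04 percentage points (exact two-sided permutation test within tables, 7350 reassignments, p = 0.000680). This difference rested on the beta globin genes, whose reads were nearly all maternal and made up 7.95% of allele reads in M-Z- (4.57 to 10.6%) and 11.7% in M+Z+ embryos (9.18 to 14.1%). Without them the share was 51.6 ± 0.136% in M-Z- and 51.7 ± 0.0810% in M+Z+ embryos, a difference of -0.11 percentage points (exact permutation p = 0.0400). With the share taken per gene and the median over genes used, it was 49.8% and 49.9%, a difference of -0.11 (exact permutation p = 0.0486).

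**Figure D5:**
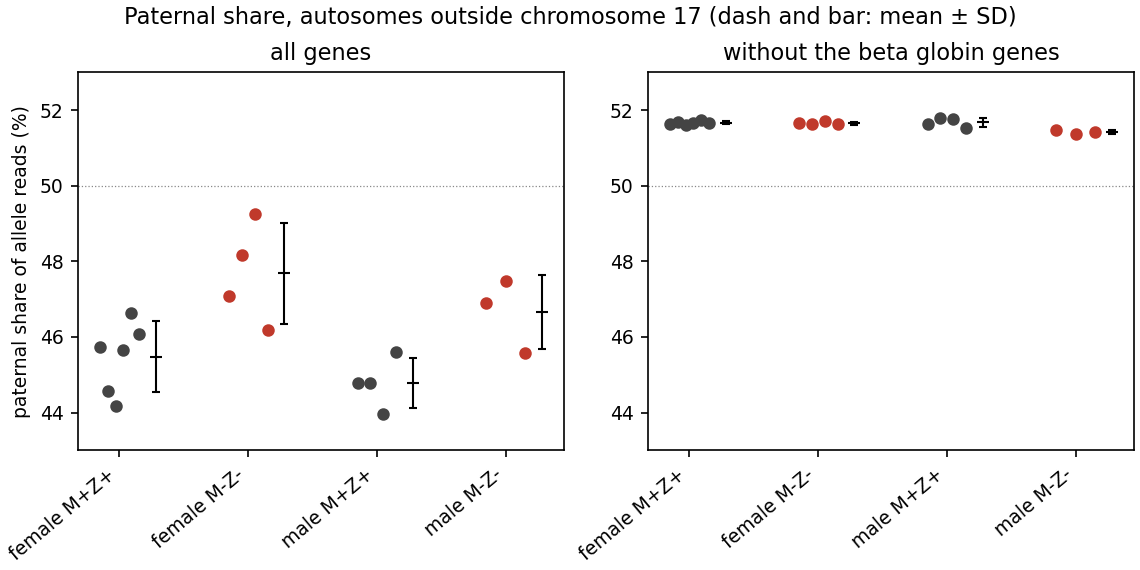
Paternal share of allele reads in percent in each of the 17 embryos by sex and genotype, over autosomal genes outside chromosome 17 (left) and over the same genes without the beta globin genes (right), with lines for group means. On the left M-Z- embryos average 47.2% and M+Z+ embryos 45.2%, and on the right 51.6% and 51.7%.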

How the data were processed

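The data were raw counts of reads per gene, embryo and parental allele from 23 hybrid mouse embryos, of which 17 were compared here. The authors made the deposited counts with GATK for the variants, BEDTools to mask these in mm9, STAR for unique end-to-end alignment, SNPsplit for the allele of each read and featureCounts for the genes. For the gene tables the methods give counting by strand, with a read over several genes counted for each; for the allele tables these settings were not given in the sources used here. The deposited gene tables, also counts, were used only for Zfp57 and tissue markers. Counts over variants measure an allele only where the strains differ in transcribed sequence, and a wrong or missing variant moves reads between alleles.

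Paternal counts were fitted with edgeR 4.0.16 (glmQLFit and glmQLFTest, limma 3.58.1) in R 4.3.3, with each embryo's total allele reads as library size, no further factor and the table as covariate. P-values were adjusted over 6110 genes, and a call needed an adjusted p below 0.05 and a change of 0.5 or more in log2 size. Maternal counts were fitted alike. The SE of a log2 fold change was worked back from the test, as its size divided by the square root of the F statistic. DESeq2 1.42.0 was an alternative. The fits were tested on simulated counts. The 4 female M+Z+ columns with repeated headers were read by position and not joined to gene-table columns. The comparison, the gene lists and the alternatives were chosen with earlier results of these data known. Genes were named if on a list, if among the 10 largest gains or losses that were called, abundant (mean of at least 20 paternal reads) and without overlap in either table, or if among the 5 lowest p-values of the genotype by table test; other genes were named after their values were seen, as stated beside them. Sequences came from RefSeq tables (GRCm38.p6) and the mm9 genome.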

Additional observations from a re-analysis of the deposited data

Results flagged for a closer look

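A check for far values took the M+Z+ females, the M+Z+ males and the M-Z- females as groups. The M-Z- males, with 3 embryos, were left out, so far values among them, male M-Z- embryo 2 included, were not looked for. In each group the highest or lowest value was set against the rest of the group. This was done for 36 genes named above and for the paternal share of allele reads, which made 111 groups. In 12 of them an embryo lay farther from the others than Dixon's 95% limit, and chance alone is expected to give about 1 in 20. Male M+Z+ embryo 3 was high for Afp (1891 RPM on the paternal allele, others 1468 to 1487), Fga (121 RPM, others 70.0 to 74.7), Serpinc1 (92.8 RPM, others 58.4 to 63.4), Rnf11 (9.63 RPM, others 2.95 to 3.99) and AF357359 (0.344 RPM, others 0), the last a single read and under the level that a count of 0 allows. Male M+Z+ embryo 4 was high for Lars2 (178 RPM, others 77.7 to 86.0) and Meg3 (8.34 RPM, others 1.01 to 2.21). Male M+Z+ embryo 1 was low for Resf1 (79.3 RPM, others 140.0 to 144). Female M+Z+ embryo 1 was high for Eno1 (300.2 RPM, others 247 to 264) and female M+Z+ embryo 2 for AF357359 (2.46 RPM, others 0 to 0.366). Among female M-Z- embryos, embryo 4 was high for Serpinc1 (49.4 RPM, others 31.3 to 33.4) and embryo 3 for Slc35a4 (37.3 RPM, others 27.3 to 28.7).

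The 6 M-Z+ embryos, which lacked the protein of the oocyte and had a functional copy from the father, took no part in the comparison. In 5 of them paternal Meg3 was above the highest M+Z+ embryo (10.9 RPM), with a range of 7.31 to 180 RPM and the highest value, 179.6 RPM, in female M-Z+ embryo 3. The same embryo was highest for paternal Rian (123.4 RPM; 4 of 6 embryos above the M+Z+ maximum of 18.6 RPM) and for Mir770 (1.79 RPM; 4 of 6 embryos above 0, the value of all M+Z+ embryos). These differences were not tested.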

How the results depend on the processing

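The 65 paternal calls became 125 with every gene of at least 1 allele read, 127 with no minimum size, 41 with robust dispersion, 13 in the female table alone, 9 in the male table alone and 10 in the female table with only M+Z+ embryos a to d. Leaving out 1 embryo gave 39 to 118: 39 without female M-Z- 2 or male M+Z+ 3, 41 without female M+Z+ a or male M+Z+ 1, 42 without male M-Z- 1 or male M-Z- 2, 43 without female M-Z- 3 and 118 without male M-Z- 3. DESeq2 called 64, of which 49 were shared. Scaling without beta globin genes, an alternative added after the data were seen, gave 54 with 20 higher and 34 lower, compared with 34 and 31, and leaving out embryos a to d gave 62, of which 42 were shared. Against M+Z+ embryos b, c, d and male 4 alone there were 7 paternal, 25 maternal, 28 allele by genotype and 2 genotype by table calls, and against the other 6 alone 146, 191, 52 and 0, alternatives also added after the data were seen. Of the 65 genes, 29 were called in all 17 fits that left out an embryo, and 6 (Dlk1, Meg3, Rian, Mir770, AF357359 and Bhmt) under every alternative in which they were tested. Against b, c, d and male 4 alone Gm12338 changed sign (0.10) and Thumpd1 had 0 reads in both groups, and no other called gene changed sign in any of these fits. That fit held 11 embryos. The maternal calls (77) became 141 with at least 1 read and 56 to 124 with 1 embryo left out. The allele by genotype calls (39) became 63 and the genotype by table calls (0) became 26 with at least 1 read, the latter 0 to 3 with 1 embryo left out (3 without male M-Z- 1, 2 without male M-Z- 3). The overall paternal share, 2.04 points higher, reversed to -0.108 as the median over genes and to -0.114 without beta globin genes, and was 1.71 to 2.32 with 1 embryo left out. The causes of these shifts were not tested, except that the smaller fits held fewer embryos. Replicate numbers were not used to pair embryos in the main fit. Correlations of same-numbered males were 0.070, 0.032 and 0.218, and those of males with different numbers ran from -0.134 to 0.050. Whether the numbers mark pairs was not tested. The male table with a replicate block gave 89 calls, 38 of them among the 65. Depth limits the comparison to 6110 genes, and a count of 0 in an embryo allows up to 0.760 to 1.22 RPM.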

Other observations

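Of the genes called in the allele by genotype test, 29 were not called on the paternal allele, and 25 of these were called on the maternal allele. Among those outside the imprinted list, named after their values were seen, were neighbours of Plagl1 and Phactr2 on chromosome 10. Fuca2, a secreted fucosidase gene, had 57.1 RPM on the paternal allele in M+Z+ and 61.4 RPM in M-Z- embryos (log2 fold change 0.11, adjusted p = 0.621) and 65.8 and 42.2 RPM on the maternal allele (-0.64, adjusted p = 0.000849; difference 0.75, adjusted p = 9.99e-05). Adat2, a tRNA deaminase gene beside it, had a difference of 0.60 (adjusted p = 0.0255) with neither allele called on its own. Near Snrpn on chromosome 7, A230057D06Rik had 7.65 and 12.4 RPM on the paternal allele (0.69, adjusted p = 0.107) and 0.527 and 46.0 RPM on the maternal allele (6.29, adjusted p = 1.44e-16).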
